A study of Mus musculus with 16 samples.

Results

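Gene expression in Ly6D-positive common lymphoid progenitors (CLP) was compared with that in young hematopoietic stem cells (HSC), to describe the whole distance between a stem cell and a progenitor biased to the B lineage. The members are 5 of the 16 arrays of the series, chosen by their titles: 2 arrays of wild-type Ly6D-positive CLP from mice of 8 to 12 weeks and 3 arrays of young wild-type HSC from mice of 9 to 12 weeks. A further 2 arrays of wild-type Ly6D-negative CLP, from mice of 8 to 12 weeks, were used to find which changes were not reached in that population. The remaining arrays are 3 of wild-type HSC from mice of 24 months, and 3 each of HSC from mice of 32 weeks with the genotypes Polgtm1Lrsn-/- (mitochondrial mutator) and Polgtm1Lrsn+/+. They entered the estimate of the spread. Every group is labelled as C57Bl6, female and bone marrow, and the cells were sorted and lysed without culture, per the labels. The labels name neither the sort gates nor any pooling of animals. The replicates are labelled biological.

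HSC are the multipotent, self-renewing cells at the origin of all blood lineages, and CLP are marrow progenitors that express the interleukin 7 receptor and can give rise to B, T, natural killer and dendritic cells. Within CLP, the surface protein Ly6D marks cells biased to the B lineage, in which the transcription factors E2A, EBF1 and FOXO1 act together to start the B cell programme. That programme includes the surrogate light chain genes, the signalling parts of the pre-B cell receptor and the recombinase that assembles immunoglobulin genes.

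The values are probe set intensities of Affymetrix mouse arrays on a linear scale, and differences were taken on log2(intensity + 16). A gene was called when limma's adjusted p, by Benjamini-Hochberg over the 14344 genes tested, was under 0.05. Genes of the X and Y chromosomes stayed in that adjustment and are left out below, as are unplaced genes, which leaves 13857 autosomal genes. Background is the 40th percentile of an array, an intensity of 16.6 to 21.3. Median intensities were 24.8 to 25.8 on the Ly6D-positive arrays and 24.9 to 25.4 on the young HSC arrays. The 2 Ly6D-positive arrays correlated with r = 0.944 across genes, against r = 0.986 to 0.996 among the young HSC arrays, and the median SD of a gene was 0.21 and 0.13 on the log2 scale. In bulk samples such as these, a smaller share of cells that express a gene and less RNA per cell cannot be told apart.

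All arrays of both CLP groups went against their label of female. The Y-linked gene Eif2s3y had intensities of 423 to 696 in Ly6D-positive CLP and 614 to 758 in Ly6D-negative CLP, against 8.14 to 9.25 in young HSC. Xist, the transcript of the inactive X chromosome, lay at 9.22 to 10.4 in Ly6D-positive CLP, against 3507 to 8041 in young HSC. Sex and cell type therefore cannot be told apart between these groups, for autosomal genes as well. One array of HSC from wild-type mice of 32 weeks had the same pattern, and its values are set beside the result below. The bacterial control transcript BioB, added to every sample, read 2434 to 3343 in Ly6D-positive CLP, 3088 to 3364 in Ly6D-negative CLP and 263 to 511 in young HSC. It also varied within HSC, from 267 to 1810 in wild-type HSC at 32 weeks. The log2 ratio of 3' to 5' actin signal, a measure of RNA integrity, was 2.51 and 3.85 in Ly6D-positive CLP, 2.11 and 2.52 in Ly6D-negative CLP and 2.39 to 2.61 in young HSC. For Gapdh it was 2.88 and 3.79, 2.80 and 3.05, and 3.15 to 3.32. Ly6D-positive replicate 2 thus had the highest ratios of the 3 populations, also in the comparison of the CLP groups. The part of these differences in the results was not tested.

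The arrays matched their sorted populations in the genes that define them. Ly6d had intensities of 1758 and 1126 in Ly6D-positive CLP, 54.7 and 23 in Ly6D-negative CLP and 19.6, 14.4 and 16.1 in young HSC. Vpreb1, which encodes part of the surrogate light chain, had 6086 and 5117 in Ly6D-positive CLP, 48.6 and 117 in Ly6D-negative CLP and 28.8, 37.6 and 31.2 in young HSC. Pou2af1, which encodes the B cell coactivator of the octamer-binding POU factors, had 1303 and 1363 in Ly6D-positive CLP, 11.9 and 10.4 in Ly6D-negative CLP and 8.12, 8.45 and 9.23 in young HSC. For these markers the Ly6D-positive arrays were far above all others, and the Ly6D-negative arrays lay near the young HSC arrays. Ly6d rose by 5.45 ± 0.28 on the log2 scale in Ly6D-positive CLP (SE; limma, adjusted p = 1.6e-08) and Vpreb1 by 6.85 ± 0.35 (limma, adjusted p = 1.6e-08). Pou2af1 was not above background on any young HSC array, so its rise has only a bound: it was at least 78.3-fold higher in Ly6D-positive CLP (means 1333 and 8.60, limma adjusted p = 1.3e-11). Conversely, the stem cell markers Slamf1, Procr, Hlf, Mecom and Fgd5 were each called lower in Ly6D-positive CLP, with values given further on.

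Between Ly6D-positive CLP and young HSC, 3345 of the 13857 autosomal genes were called, which is 24.1% of them. Of these, 1464 genes (10.6%) were higher and 1881 (13.6%) lower in Ly6D-positive CLP. The median log2 difference was 1.20 for the higher genes and -1.41 for the lower genes, against 0.01 over all genes tested, and 240 higher and 450 lower genes differed by at least 4-fold. The 2 groups of arrays did not overlap for 58.4% of all genes. With 2 arrays against 3, separation alone therefore says little about a gene.

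For the genes called, much of the median distance was also seen in Ly6D-negative CLP. In that population 3360 genes (24.2%) were called against the same young HSC arrays, and the genes called higher in Ly6D-positive CLP had a median log2 difference of 0.91 there. For the genes called lower it was -1.20. Both CLP groups were set against the same young HSC arrays, and both had the sex-linked pattern and the high BioB readings given above. The part of these in the shared distance cannot be told apart from that of cell type. Between the 2 CLP groups only 376 genes (2.71%) were called. A change was taken as not reached when the gene was called in Ly6D-positive CLP against young HSC and also against Ly6D-negative CLP, in the same direction. This held for 139 higher genes (1.003%) and 87 lower genes (0.628%). The counts of these genes depend on the fit: they were 56 higher and 21 lower with array weights, and 68 higher and 65 lower when only the 7 arrays of the 3 populations were fitted.

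**Figure D1:**
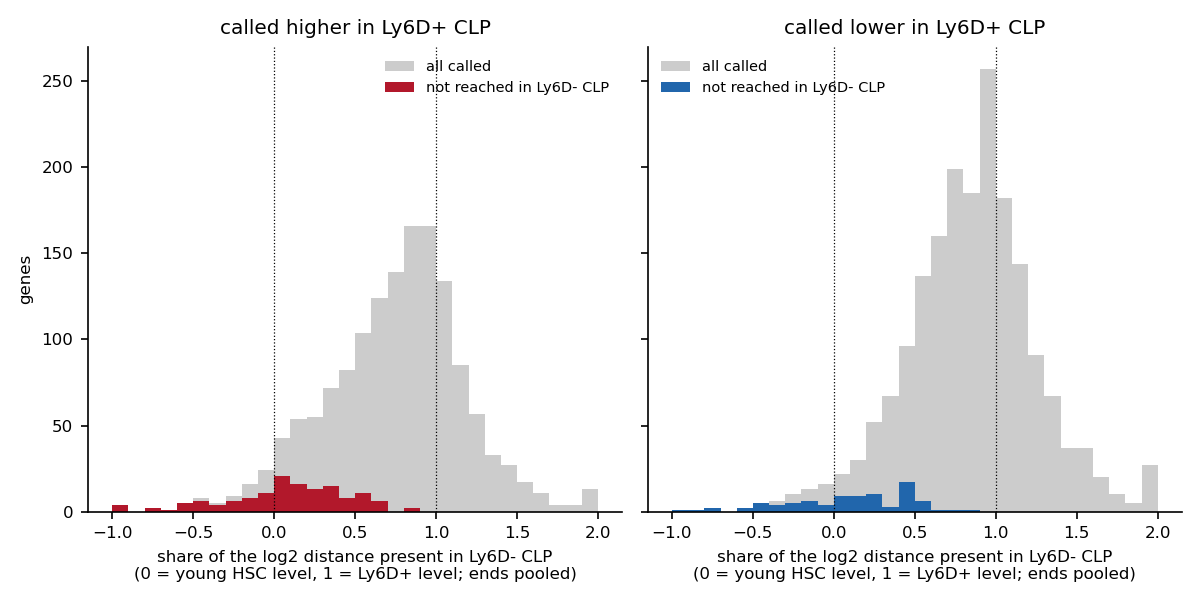
The number of genes (vertical axis) is plotted against the share of the log2 distance between young HSC and Ly6D-positive CLP that was present in Ly6D-negative CLP (horizontal axis), for the 1464 genes called higher (left) and the 1881 called lower (right). Grey bars are all called genes, which gather near 1, and coloured bars are the 139 higher and 87 lower genes whose change was not reached.

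Most of the genes whose change was not reached did not pass the test between Ly6D-negative CLP and young HSC. It called 39 of the 139 higher and 28 of the 87 lower genes in the same direction as in Ly6D-positive CLP, and 5 and 2 in the opposite direction. The 139 higher genes had a median log2 difference of 1.95 in Ly6D-positive CLP and of 0.19 in Ly6D-negative CLP, both against young HSC. Less than 0.25 of the distance was present in Ly6D-negative CLP for 91 of them and 0.25 to 0.75 for 46, and 47 were below their young HSC level there. The 87 lower genes had medians of -1.91 in Ly6D-positive CLP and -0.27 in Ly6D-negative CLP, with 33 of them at 0.25 to 0.75 of the distance. These medians describe genes that the rule selected and are no test. Of the 139 higher genes, 26 were not above background on any young HSC array and 18 on no Ly6D-negative array. In 130 of the 139, both Ly6D-positive arrays lay above all 12 HSC arrays of every age and genotype, and in 135 they lay above the array of wild-type HSC at 32 weeks that had the same sex-linked pattern as CLP. For the 87 lower genes, 72 lay below all 12 HSC arrays and 83 below that array. Over all genes tested, 22.2% lay beyond all 12 HSC arrays and 55.7% beyond that 1 array, each in the direction of its own difference from young HSC. Among all 1464 genes called higher the shares were 72.5% and 82.3%, and among all 1881 called lower 52.2% and 71.7%. The 12 arrays include the young HSC arrays that the selection used. That 1 array had a log2 ratio of 3' to 5' actin of 5.26, against 2.39 to 2.61 in young HSC. The part of sex was not tested. When each of the 7 arrays was left out in turn, 63 of the 139 higher and 21 of the 87 lower genes kept their place in all 7 fits.

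**Figure D2:**
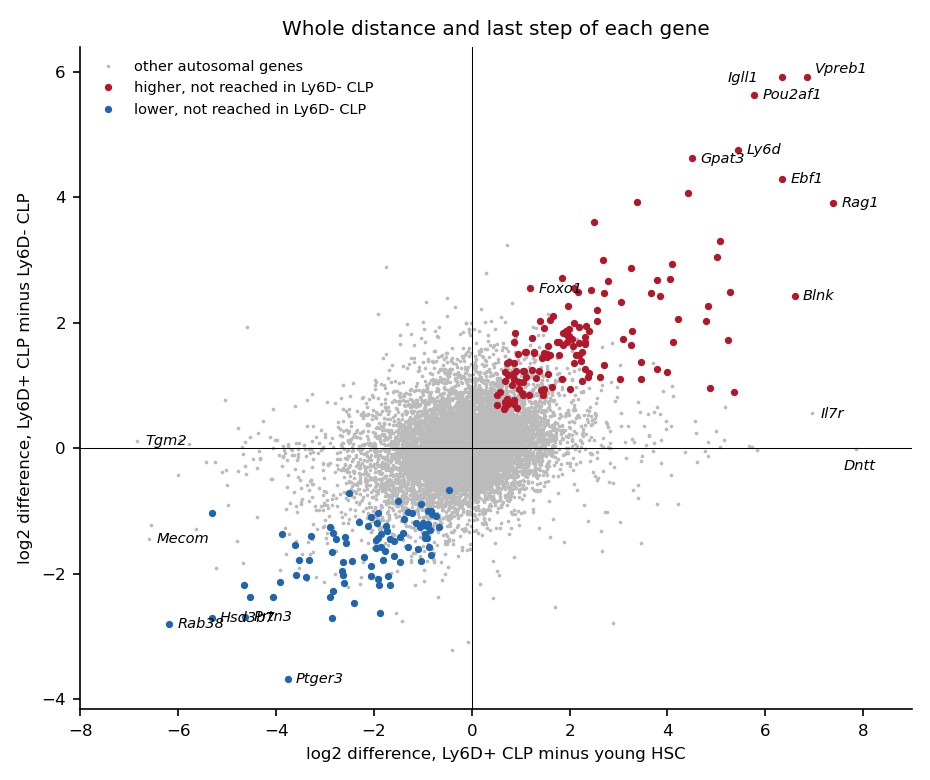
Each point is an autosomal gene, with the log2 difference of Ly6D-positive CLP minus young HSC on the horizontal axis and of Ly6D-positive minus Ly6D-negative CLP on the vertical axis. Genes whose change was not reached in Ly6D-negative CLP are red (139 higher) or blue (87 lower). Vpreb1, Igll1 and Pou2af1 lie close to the diagonal, while Dntt and Tgm2 lie at the horizontal axis.

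Transcription factors of the B lineage were the first group of interest. Of 26 tested members, 15 were called higher (57.7%) and 0 lower, against 10.6% and 13.6% of all genes. The median log2 difference of the 26 was 1.09 against 0.01 over all genes, and 5 of the 15 were not reached in Ly6D-negative CLP. Among all 1464 genes called higher, 139 were not reached. Without Ly6D-positive replicate 2, 11 were called higher. Ebf1, which encodes the factor that commits progenitors to the B lineage, had 1651 and 2051 in Ly6D-positive CLP, 115 and 52.6 in Ly6D-negative CLP and 6.95, 6.40 and 7.42 in young HSC. No young HSC array was above background, so Ebf1 was at least 108-fold higher in Ly6D-positive CLP (limma, adjusted p = 3.2e-10). It also rose by 4.29 ± 0.23 against Ly6D-negative CLP on the log2 scale (limma, adjusted p = 4.0e-07), and those arrays were themselves above young HSC. Spib, an ETS factor of B cells and plasmacytoid dendritic cells, had 139 and 88.4 in Ly6D-positive CLP, 14.8 and 17.1 in Ly6D-negative CLP and 16.5, 13.1 and 12.2 in young HSC. It was above background only in Ly6D-positive CLP, where it was at least 6.52-fold higher than in young HSC (limma, adjusted p = 9.8e-07).

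Foxo1, a factor that drives Il7r and recombinase genes, did not follow the order of the populations. It had 1774 and 2308 in Ly6D-positive CLP, 338 and 326 in Ly6D-negative CLP and 891, 863 and 867 in young HSC. Ly6D-positive CLP was the highest of the 3 populations and Ly6D-negative CLP the lowest, with no overlap between any pair. Foxo1 rose by 1.20 ± 0.31 against young HSC (limma, adjusted p = 0.014), a call that was lost without Ly6D-positive replicate 2, and by 2.55 ± 0.34 against Ly6D-negative CLP (limma, adjusted p = 0.0012). In Ly6D-negative CLP it fell by 1.35 against young HSC (limma, adjusted p = 0.0071). Only 5 of the 139 higher genes were called in opposite directions in this way, the others being Tstd3, Abcb6, Stimate and Myo7a, and these 5 were named after their values were seen.

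Pax5, the factor that maintains B cell identity, was near the lower end of detection. It had 128 and 41.9 in Ly6D-positive CLP, 23.5 and 24 in Ly6D-negative CLP and 19.7, 19.2 and 17.8 in young HSC. It rose by 1.39 ± 0.29 against young HSC (limma, adjusted p = 0.0034), but the difference from Ly6D-negative CLP, 1.20 ± 0.32, did not pass (limma, adjusted p = 0.069). Irf4, a factor of later B cell stages, had 148 and 35.7 in Ly6D-positive CLP, so its call rested on a wide pair of values, and it was lost when only the 7 arrays of the 3 populations were fitted. Irf8 and Tcf3 of this group were above young HSC in both CLP groups, though no order in time was measured. Irf8, which acts in lymphoid and dendritic progenitors, averaged 3679 ± 673 in Ly6D-positive CLP, against 3614 ± 590 in Ly6D-negative CLP and 54.8 ± 21.4 in young HSC (SD, n = 2, 2 and 3). Tcf3, which encodes E2A, rose by 1.43 ± 0.26 (limma, adjusted p = 0.0015) and differed by 0.25 ± 0.29 between the CLP groups. Ets1 rose by 2.13 ± 0.33 in Ly6D-positive CLP against young HSC (limma, adjusted p = 0.00045).

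The pre-B receptor list held more changes not reached than any other of the 26 lists, by count and per member tested. The lists were chosen with earlier results of these data known, and this list holds Vpreb1, a marker of the comparison. The order of the lists is therefore a description and no test. Of 20 tested members, 14 were called higher (70%) and 1 lower (5%), against 10.6% and 13.6% of all genes. The median log2 difference of the 20 was 1.67, and 8 of the 14 were not reached in Ly6D-negative CLP. Of all 1464 genes called higher, 139 were not reached. Without Ly6D-positive replicate 2 the counts were 12 higher and 1 lower. Igll1, which encodes the other part of the surrogate light chain, had 5222 and 3841 in Ly6D-positive CLP, 63.9 and 53.8 in Ly6D-negative CLP and 44.1, 35.1 and 39 in young HSC. It rose by 6.35 ± 0.26 against young HSC and by 5.91 ± 0.28 against Ly6D-negative CLP (limma, adjusted p = 1.8e-09 and 8.8e-08), whose own difference from young HSC of 0.43 did not pass. Thus Vpreb1 and Igll1, which together replace the light chain in the pre-B receptor, moved in the same arrays and over nearly the same range.

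Blnk, the adaptor that links the receptor to its downstream kinases, lay between the other populations in Ly6D-negative CLP. It had 4283 and 2940 in Ly6D-positive CLP, 579 and 725 in Ly6D-negative CLP and 19.3, 17.7 and 25.6 in young HSC, and no groups overlapped. The rise was 6.60 ± 0.21 against young HSC (limma, adjusted p = 2.5e-10) and 2.42 ± 0.23 against Ly6D-negative CLP (limma, adjusted p = 6.9e-05). Blk, a Src-family kinase of B cells, had 408 and 347 in Ly6D-positive CLP, 39.1 and 51.5 in Ly6D-negative CLP and 14.9, 11.7 and 11 in young HSC. With no young HSC array above background, it was at least 22.1-fold higher in Ly6D-positive CLP (limma, adjusted p = 1.2e-09).

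The signalling chains of the receptor differed in level of detection. Cd79b had 1020 and 887 in Ly6D-positive CLP, 258 and 330 in Ly6D-negative CLP and 92.9, 78.1 and 85.9 in young HSC, so that each population stood apart, although the difference between the CLP groups was lost with array weights. Its partner Cd79a had 173 and 60.9 in Ly6D-positive CLP, 17.1 and 16.9 in Ly6D-negative CLP and 17.6, 14.7 and 15.2 in young HSC. Cd79a was above background on both Ly6D-positive arrays, on no Ly6D-negative array and on 1 of 3 young HSC arrays, and it rose by 1.92 ± 0.27 against young HSC (limma, adjusted p = 0.00021). Vpreb3, a chaperone of the receptor in B cell precursors, rose by 2.40 ± 0.20 (limma, adjusted p = 1.8e-06). The last of the 8, Akap12, a scaffold protein of protein kinase A, had 176 and 409 in Ly6D-positive CLP, 36.2 and 13.3 in Ly6D-negative CLP and 14, 13.6 and 14.6 in young HSC. In contrast, Dapp1, an adaptor of B cell receptor signalling, fell by 2.76 ± 0.17 (limma, adjusted p = 1.1e-07), with means of 483 in Ly6D-positive CLP and 3376 in young HSC. Ighm, the heavy chain of immunoglobulin M, averaged 136 in Ly6D-positive CLP and 123 in young HSC and was not called.

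**Figure D3:**
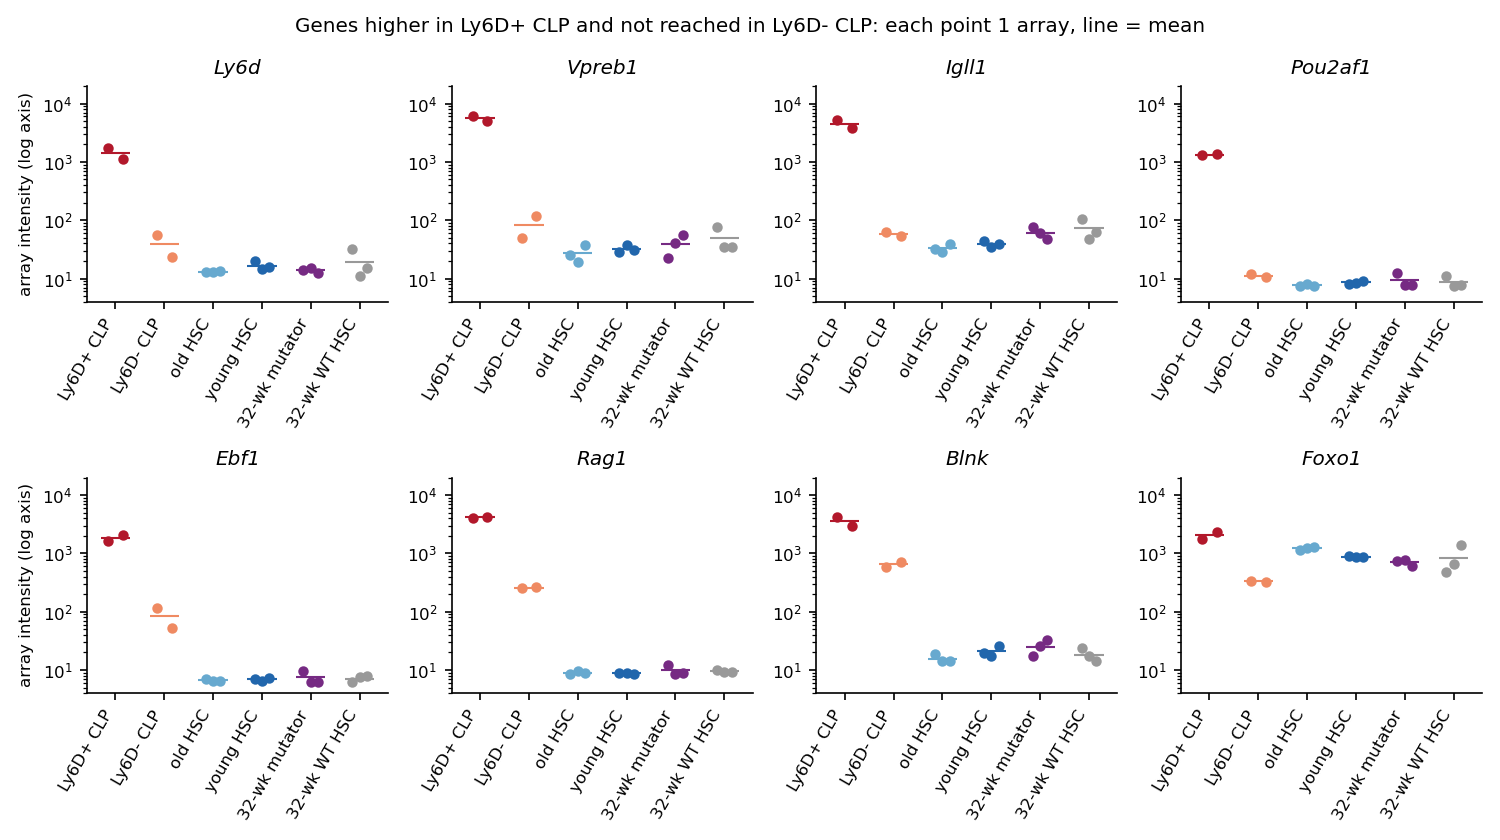
Array intensities (log axis) of 8 genes whose rise was not reached in Ly6D-negative CLP, for Ly6D-positive CLP, Ly6D-negative CLP and the 4 groups of HSC. Each point is 1 array and each line a group mean. Both Ly6D-positive points lie above every HSC point in all 8 panels, and Foxo1 alone is lowest in Ly6D-negative CLP.

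The promoters of 4 of these genes are shown because they were among the largest rises and carry letters known to be bound by factors of this step. Each run is the 250 bases before the RefSeq transcription start, 5′ to 3′ in the direction of the gene. Capitals mark the octamer ATGCAAAT, the E-box CAGGTG and the EBF1 core CCCNNGGG on either strand, and none of these matches overlap here.
Vpreb1, GRCm38.p6 chr16:16869256-16869505, minus strand: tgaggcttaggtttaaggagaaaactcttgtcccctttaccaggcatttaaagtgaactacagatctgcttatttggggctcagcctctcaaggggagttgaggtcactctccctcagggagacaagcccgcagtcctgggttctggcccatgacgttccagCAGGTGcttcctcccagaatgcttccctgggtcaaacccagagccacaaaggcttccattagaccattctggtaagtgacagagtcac
Igll1, GRCm38.p6 chr16:16863986-16864235, minus strand: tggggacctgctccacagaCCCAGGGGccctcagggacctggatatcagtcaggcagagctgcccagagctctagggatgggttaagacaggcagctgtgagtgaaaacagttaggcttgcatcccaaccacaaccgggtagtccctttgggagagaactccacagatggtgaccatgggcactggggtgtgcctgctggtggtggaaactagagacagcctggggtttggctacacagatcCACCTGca
Blnk, GRCm38.p6 chr19:40994222-40994471, minus strand: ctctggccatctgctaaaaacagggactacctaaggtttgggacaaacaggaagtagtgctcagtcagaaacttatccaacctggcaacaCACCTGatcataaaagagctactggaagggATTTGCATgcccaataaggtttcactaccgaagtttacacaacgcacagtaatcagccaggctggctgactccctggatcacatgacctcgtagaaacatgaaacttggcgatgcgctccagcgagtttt
Chchd10, GRCm38.p6 chr10:75932880-75933129, plus strand: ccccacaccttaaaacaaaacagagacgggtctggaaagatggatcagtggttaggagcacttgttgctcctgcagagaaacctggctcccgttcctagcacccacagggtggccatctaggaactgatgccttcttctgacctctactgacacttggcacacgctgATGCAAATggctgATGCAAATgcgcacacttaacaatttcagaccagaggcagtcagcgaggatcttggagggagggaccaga

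Vpreb1 held an E-box 88 bases before its start. Igll1 held an E-box 8 bases and an EBF1 core 231 bases before the start, Blnk an octamer at 130 and an E-box at 160, and Chchd10 a pair of octamers at 83 and 70 bases. Windows not shown were mixed. Those of Pou2af1, Ebf1 (at both of its start sites) and Gpat3, also large rises, held no match. Rag1 and Cd79a each held an E-box, and Spib held the EBF1 core. RefSeq promoters were at hand for 112 of the 139 higher genes whose change was not reached. An octamer stood in 5 of these 112 windows (4.46%), those of Blnk, Chchd10, Vpreb3, Prkcb and Abtb2, against 1.26% of the 11135 windows of all autosomal genes tested and 0 of the 74 windows of the lower genes. The EBF1 core was in 16.1% and the E-box in 16.1% of the 112 windows, against 15.5% and 16.2% of all genes tested. Both were more frequent in the 74 windows of the lower genes, at 31.1% for the EBF1 core and 23.0% for the E-box. These matches are descriptions of letters in a window and were not tested.

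Of 10 tested genes of antigen receptor recombination, 5 were called higher (50%) and 1 lower (10%), against 10.6% and 13.6% of all genes. Rag1, the catalytic subunit of the recombinase, had 3982 and 4264 in Ly6D-positive CLP, 253 and 263 in Ly6D-negative CLP and 8.84, 8.95 and 8.53 in young HSC. It was the 1 member whose change was not reached, at least 242-fold higher in Ly6D-positive CLP than in young HSC (limma, adjusted p = 3.2e-13) and 3.92 ± 0.13 higher than in Ly6D-negative CLP on the log2 scale (limma, adjusted p = 1.9e-09). Rag2, its cofactor, had 390 and 361 in Ly6D-positive CLP, 341 and 137 in Ly6D-negative CLP and 24.9, 21.6 and 17.2 in young HSC. Rag2 rose by 3.40 ± 0.30 against young HSC (limma, adjusted p = 2.9e-06), and its difference between the CLP groups, 0.74 ± 0.32, did not pass. Dntt, the terminal transferase that adds bases at the joints, had 8648 and 8783 in Ly6D-positive CLP, 8869 and 8652 in Ly6D-negative CLP and 23.1, 22 and 19.9 in young HSC. It rose by 7.86 ± 0.27 (limma, adjusted p = 3.2e-10), and the CLP groups differed by -0.01 ± 0.29. Among repair factors used in joining, Xrcc6 and Prkdc rose by 2.27 and 1.20. Xrcc5, whose protein pairs with that of Xrcc6, was the 1 gene called lower, with 42.2 and 203 in Ly6D-positive CLP, against 192 and 126 in Ly6D-negative CLP and 313, 280 and 288 in young HSC. Its difference of -1.46 ± 0.43 (limma, adjusted p = 0.025) did not pass in 8 of 20 alternatives, among them the fits without Ly6D-positive replicate 1 or without any 1 young array.

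Of 17 tested genes in the list of lymphoid cytokine and homing receptors, 8 were called higher (47.1%) and 1 lower (5.88%). Over all genes the shares were 10.6% and 13.6%. Of these genes 2, Ly6d and Ccr7, were not reached in Ly6D-negative CLP. Ly6d is no such receptor but the surface protein that names the CLP groups, so its place here follows from the groups themselves. Il7r, the receptor chain on which mouse B cell development depends, had 3417 and 3930 in Ly6D-positive CLP, 2162 and 2851 in Ly6D-negative CLP and 12.2, 13.4 and 15.7 in young HSC. It was at least 215-fold higher in Ly6D-positive CLP than in young HSC (limma, adjusted p = 1.1e-10), and the difference of 0.56 ± 0.22 between the CLP groups did not pass. Flt3, the receptor of FLT3 ligand, rose by 4.60 ± 0.24 (limma, adjusted p = 1.8e-08), with means of 4308 in Ly6D-positive CLP, against 5013 in Ly6D-negative CLP and 162 in young HSC. The chemokine receptors diverged. Ccr7, which guides cells to lymph nodes, had 121 and 139 in Ly6D-positive CLP, 32.1 and 27.8 in Ly6D-negative CLP and 14.5, 13.7 and 11.4 in young HSC. Ccr9, which guides progenitors to the thymus, had 86.2 and 290 in Ly6D-positive CLP, 1051 and 1366 in Ly6D-negative CLP and 7.86, 7.34 and 8.37 in young HSC. Ccr9 was at least 9.29-fold higher in Ly6D-positive CLP than in young HSC, and it fell by 2.78 ± 0.34 against Ly6D-negative CLP (limma, adjusted p = 0.00047).

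Of 19 tested transcripts known from early lymphoid cells, 11 were called higher (57.9%) and 2 lower (10.5%), against 10.6% and 13.6% of all genes. Satb1, a chromatin organiser of lymphoid progenitors, averaged 3112 ± 182 in Ly6D-positive CLP, against 3191 ± 317 in Ly6D-negative CLP and 102 ± 35.3 in young HSC (SD, n = 2, 2 and 3). Ly86, a partner of the receptor-like protein CD180 on B cells and myeloid cells, rose further, with 1428 and 1729 in Ly6D-positive CLP, 500 and 433 in Ly6D-negative CLP and 25.6, 22.9 and 29.6 in young HSC. Of 15 tested genes of the T lineage and Notch pathway, 2 were called higher (13.3%) and 1 lower (6.67%), near or below the 10.6% and 13.6% of all genes, and 0 were not reached, so that the list did not stand out from the background. Without young HSC replicate 2 or 3, 1 was higher. Notch1 rose by 3.86 ± 0.25 (limma, adjusted p = 1.8e-07), with means of 5369 in Ly6D-positive CLP, against 6282 in Ly6D-negative CLP and 357 in young HSC, while Gata3 fell by 1.28 ± 0.22 (limma, adjusted p = 0.00095). Among 10 genes of class II antigen presentation, 3 rose (30%) and 1, H2-Aa, was lower (10%). The H2-Aa call was lost in 8 of 20 alternatives, among them quantile normalization and array weights. H2-Ob, a modulator of peptide loading, rose most, by 3.87 ± 0.38 (limma, adjusted p = 9.8e-06).

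Several of the largest rises between the CLP groups lay outside these lists. Gpat3, an acyltransferase of triglyceride synthesis, had 497 and 732 in Ly6D-positive CLP, 9.29 and 8.99 in Ly6D-negative CLP and 11.9, 11.6 and 10.9 in young HSC. Only the Ly6D-positive arrays were above background, at least 35.4-fold higher than young HSC (limma, adjusted p = 5.5e-08). Chchd10, a protein of the mitochondrial intermembrane space, had 4227 and 3479 in Ly6D-positive CLP, 294 and 153 in Ly6D-negative CLP and 204, 139 and 152 in young HSC, a rise of 4.43 ± 0.33 against young HSC (limma, adjusted p = 6.7e-07). Here Ly6D-negative CLP and young HSC overlapped. Mzb1, an endoplasmic reticulum protein of B and plasma cells, had 1872 and 1372 in Ly6D-positive CLP, 226 and 95.1 in Ly6D-negative CLP and 37.9, 26.6 and 32.4 in young HSC.

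Other genes not reached differed in where Ly6D-negative CLP stood. Prkcb, the protein kinase C isoform of B cell receptor signalling, had 677 and 575 in Ly6D-positive CLP, 31.3 and 42.2 in Ly6D-negative CLP and 81.2, 118 and 96.2 in young HSC. Pde2a, a phosphodiesterase of cyclic nucleotides, had 5708 and 4763 in Ly6D-positive CLP, 450 and 893 in Ly6D-negative CLP and 755, 822 and 830 in young HSC. The rises against young HSC were 2.49 ± 0.42 for Prkcb (limma, adjusted p = 0.00076) and 2.68 ± 0.28 for Pde2a (limma, adjusted p = 1.7e-05), whereas the difference of either gene between Ly6D-negative CLP and young HSC did not pass. For Prkcb both Ly6D-negative arrays lay below the young arrays, and for Pde2a 1 lay below and 1 above them. Myl4, a myosin light chain, and the orphan receptor gene Gpr25 rose by 5.01 ± 0.23 and 4.09 ± 0.27 (limma, adjusted p = 4.8e-09 and 2.0e-07), and both were already higher in Ly6D-negative CLP than in young HSC (limma, adjusted p = 4.8e-05 for Myl4 and 0.0074 for Gpr25). Among the Gimap GTPases of lymphocytes, 2 of 8 rose (25%) and 1 fell (12.5%), against 10.6% and 13.6% of all genes. Gimap7 averaged 618 ± 161 in Ly6D-positive CLP, against 176 ± 0.37 in Ly6D-negative CLP and 20.1 ± 3.40 in young HSC (SD, n = 2, 2 and 3). Gimap4 had 1673 and 1855 in Ly6D-positive CLP against 266 and 32.2 in Ly6D-negative CLP, a wide pair, and its difference between the CLP groups was lost in 2 of the 7 fits that left out an array.

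**Figure D4:**
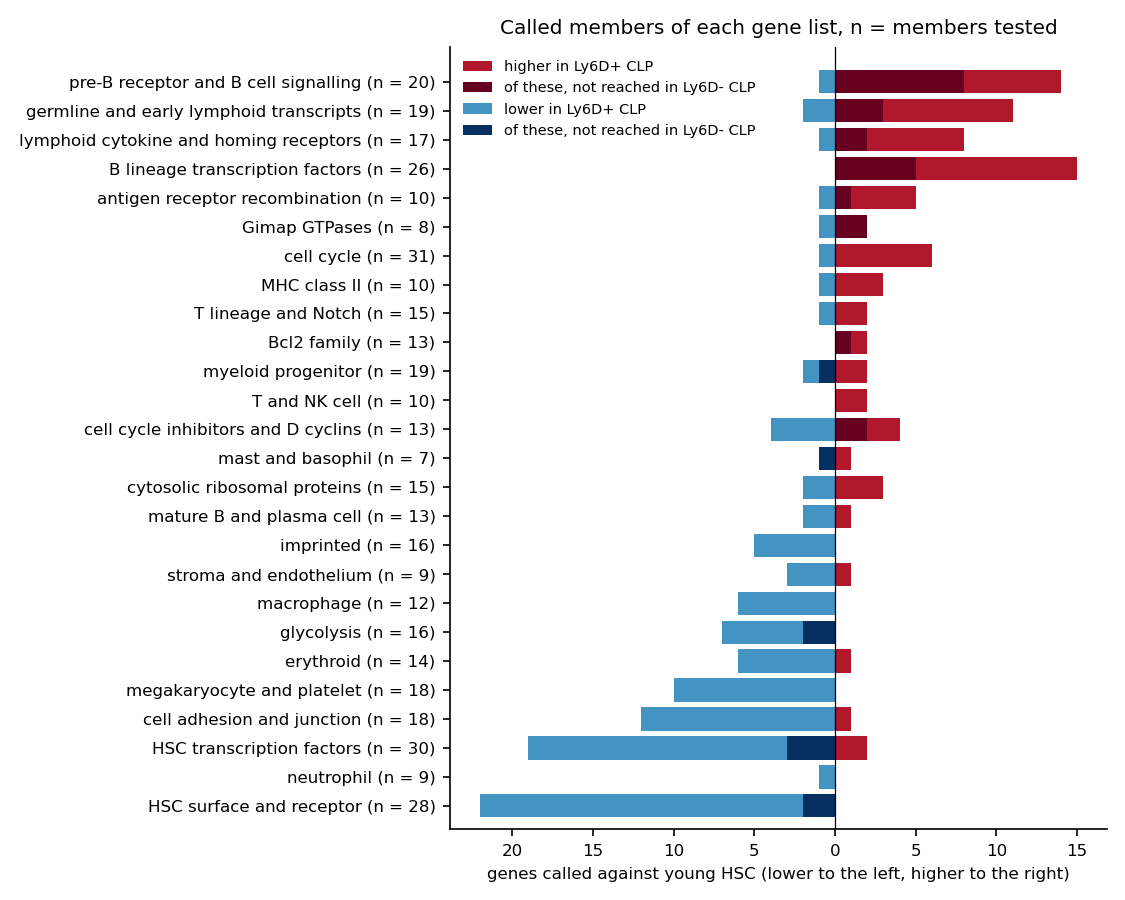
Number of genes of each list called higher (right of 0) or lower (left of 0) in Ly6D-positive CLP against young HSC, out of the members tested (n). Darker parts are genes whose change was not reached in Ly6D-negative CLP. The darker part is largest for the pre-B receptor list, with 8 of 14 higher genes, and is 3 of 19 lower genes for HSC transcription factors.

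Stem cell genes fell widely, and much of that fall was also seen in Ly6D-negative CLP. This was so for lower genes in general. The 1881 genes called lower had a median log2 difference of -1.41 in Ly6D-positive CLP and -1.20 in Ly6D-negative CLP. Over all genes, 13.6% were called lower and 10.6% higher in Ly6D-positive CLP. Of 30 tested transcription factors of HSC, 19 were called lower (63.3%) and 2 higher (6.67%). Their median log2 difference was -1.70, and -1.14 in Ly6D-negative CLP. Of 28 surface proteins and receptors, 22 were lower (78.6%) and 0 higher, with a median of -3.17, and -2.69 in Ly6D-negative CLP. Without Ly6D-positive replicate 2 the counts in Ly6D-positive CLP were 18 lower and 1 higher, and 21 lower and 0 higher. Mecom, which encodes the EVI1 factor needed for stem cell self-renewal, had 9.97 and 9.45 in Ly6D-positive CLP, 14.3 and 144 in Ly6D-negative CLP and 2035, 2734 and 2760 in young HSC. It was not above background in Ly6D-positive CLP and at least 139-fold lower there than in young HSC (limma, adjusted p = 5.7e-07). Tgm2, a transglutaminase, had 20.6 and 17.5 in Ly6D-positive CLP, 17 and 15.6 in Ly6D-negative CLP and 3698, 4136 and 4231 in young HSC, and fell by 6.85 ± 0.19 (limma, adjusted p = 6.7e-11). In both genes the young HSC arrays stood more than an order of magnitude above all CLP arrays. Myct1, Pbx3 and Fgd5 were likewise at background on both Ly6D-positive arrays, at least 132-fold, 17.6-fold and 31.0-fold lower than in young HSC.

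Other defining genes of stem cells kept a low signal. Procr, the endothelial protein C receptor, had 43.7 and 18.4 in Ly6D-positive CLP, 11.3 and 9.76 in Ly6D-negative CLP and 1554, 1480 and 1401 in young HSC. Hlf, a factor largely restricted to HSC within the marrow, had 18.6 and 84.5 in Ly6D-positive CLP, 29 and 114 in Ly6D-negative CLP and 1905, 1966 and 2181 in young HSC. Slamf1, whose product CD150 is used to sort HSC, fell by 2.70 ± 0.22 (limma, adjusted p = 1.8e-06), with means of 34.1 in Ly6D-positive CLP and 309 in young HSC. Kit, the receptor of stem cell factor, fell by 3.50 ± 0.35 (limma, adjusted p = 1.2e-05), with 251 and 276 in Ly6D-positive CLP, 410 and 588 in Ly6D-negative CLP and 2391, 3603 and 3585 in young HSC. Cd34, the sialomucin of progenitors, was highest in Ly6D-negative CLP, with 3818 and 3207 there, and its values of 1037 and 1826 in Ly6D-positive CLP overlapped the 1917, 1223 and 1241 of young HSC. Its difference of -0.05 ± 0.32 from young HSC did not pass.

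The falls that were not reached in Ly6D-negative CLP had other leaders. Ptger3, a receptor of prostaglandin E2, had 103 and 13.6 in Ly6D-positive CLP, 795 and 689 in Ly6D-negative CLP and 754, 828 and 783 in young HSC. Ly6D-negative CLP overlapped young HSC, and Ptger3 fell in Ly6D-positive CLP by 3.76 ± 0.41 against young HSC and by 3.67 ± 0.44 against Ly6D-negative CLP (limma, adjusted p = 2.1e-05 and 0.00043). Rab38, a small GTPase of lysosome-related organelles, had 35.5 and 42.8 in Ly6D-positive CLP, 224 and 590 in Ly6D-negative CLP and 4624, 3680 and 3776 in young HSC, so Ly6D-negative CLP lay between the others. Hsd3b7, an enzyme of bile acid and oxysterol metabolism, behaved alike, with 26.7 and 22.1 in Ly6D-positive CLP, 240 and 254 in Ly6D-negative CLP and 1683, 1660 and 1455 in young HSC. Rab38 fell by 6.19 ± 0.29 and Hsd3b7 by 5.32 ± 0.27 against young HSC (limma, adjusted p = 7.3e-09 and 1.5e-08).

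Prtn3, a serine protease of neutrophil granules, had 29.7 and 35.7 in Ly6D-positive CLP, 303 and 292 in Ly6D-negative CLP and 1397, 1063 and 1147 in young HSC, with no overlap, and fell by 4.64 ± 0.35 (limma, adjusted p = 6.7e-07). It was 1 of 2 genes called lower among 19 tested myeloid progenitor genes (10.5%), of which 2 were called higher (10.5%), shares close to or below the 13.6% and 10.6% of all genes. The list's median was 0.20. Mpo, the granule enzyme myeloperoxidase, averaged 1906 in Ly6D-positive CLP, against 3869 in Ly6D-negative CLP and 278 in young HSC and was not called. Of 16 glycolysis genes, 7 were lower (43.75%) and 0 higher, with a median of -0.59. Hk2, a hexokinase, had 61.5 and 79 in Ly6D-positive CLP, 319 and 228 in Ly6D-negative CLP and 433, 347 and 370 in young HSC, and fell by 2.21 ± 0.27 against young HSC (limma, adjusted p = 5.4e-05) and by 1.73 ± 0.29 against Ly6D-negative CLP (limma, adjusted p = 0.0067). Cpq, a secreted carboxypeptidase, and Ptpn12, a tyrosine phosphatase, fell by 4.06 ± 0.28 and 3.92 ± 0.21.

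Of the 19 lower HSC transcription factors, 3 were not reached in Ly6D-negative CLP, namely Hoxa9, Lmo2 and Gata2. Among all 1881 genes called lower, 87 were not reached. Hoxa9, a homeobox factor of stem and progenitor cells, had 1055 and 1605 in Ly6D-positive CLP, 3978 and 3829 in Ly6D-negative CLP and 4509, 4820 and 4850 in young HSC. It fell by 1.85 ± 0.25 against young HSC (limma, adjusted p = 0.00014) and by 1.57 ± 0.27 against Ly6D-negative CLP (limma, adjusted p = 0.0080). Lmo2, a bridging protein of hematopoietic factor complexes, had 1065 and 1335 in Ly6D-positive CLP, 3342 and 2865 in Ly6D-negative CLP and 4276, 4361 and 4529 in young HSC. Its groups did not overlap, but its place among the changes not reached was lost in each of the 7 fits that left out an array. Gata2, a factor of stem and mast cells, had 30.3 and 33.6 in Ly6D-positive CLP, 73.3 and 92 in Ly6D-negative CLP and 1836, 1966 and 1867 in young HSC, and kept its place in only 2 of those 7 fits. With array weights none of Hoxa9, Lmo2 and Gata2 passed between the CLP groups.

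**Figure D5:**
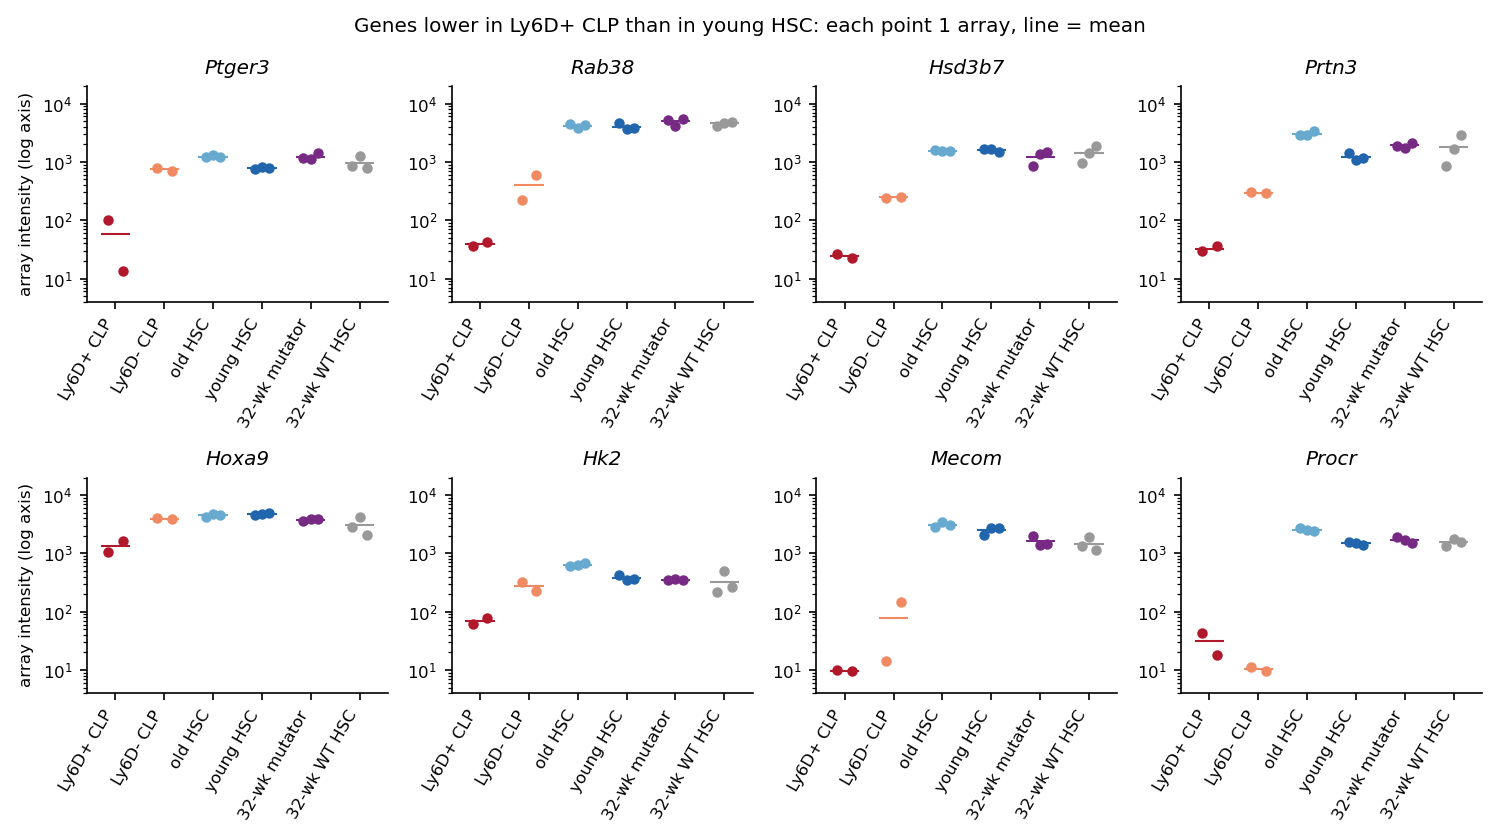
Array intensities (log axis) of 6 genes whose fall was not reached in Ly6D-negative CLP (Ptger3, Rab38, Hsd3b7, Prtn3, Hoxa9 and Hk2) and of 2 stem cell genes whose fall was (Mecom and Procr). Each point is 1 array and each line a group mean, and both Ly6D-positive points lie below every HSC point in all 8 panels.

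Of 31 cell cycle genes, 6 were called higher (19.4%) and 1 lower (3.23%), against 10.6% and 13.6% of all genes, with a median of 0.58. The higher count was not stable: it was 3 without either Ly6D-positive array or without young HSC replicate 2, and 2 with array weights. Mki67, the marker of dividing cells, had 3895 and 5157 in Ly6D-positive CLP, 3095 and 2874 in Ly6D-negative CLP and 972, 3265 and 3418 in young HSC and was not called. One young array lay far below the other two, and without it the difference was 0.42, against 1.01 with all arrays. Against old HSC, 24 of the 31 were higher, and against wild-type HSC at 32 weeks 18 were, so the count depends on which stem cells stand as the comparison. Among cyclin-dependent kinase inhibitors and D cyclins, 4 of 13 were higher (30.8%) and 4 lower (30.8%). Cdk6 rose by 2.27 ± 0.29 (limma, adjusted p = 8.2e-05) and Cdkn1c, an imprinted inhibitor tied to stem cell quiescence, fell by 2.74 ± 0.37 (limma, adjusted p = 0.00015). Ccnd3, the D cyclin that pre-B cells depend on, had 1863 and 1831 in Ly6D-positive CLP, 410 and 423 in Ly6D-negative CLP and 616, 601 and 509 in young HSC, a rise of 1.66 ± 0.37 (limma, adjusted p = 0.0051) that did not pass when all probe sets of a gene were averaged. Of 16 imprinted genes, 5 were lower (31.25%) and 0 higher. Among the lower genes was Grb10, an adaptor that restrains growth signalling, with means of 17.6 in Ly6D-positive CLP and 2070 in young HSC. Another was Ndn, which fell by 3.77 ± 0.19 (limma, adjusted p = 1.8e-08).

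Markers of other cells that the sorts could hold were read in the same arrays. Over all genes, 10.6% were called higher and 13.6% lower in Ly6D-positive CLP. Of 18 megakaryocyte and platelet genes, 10 were lower (55.6%) and 0 higher, and Vwf averaged 10.9 in Ly6D-positive CLP and 713 in young HSC. Among 14 erythroid genes, 6 were lower (42.9%) and 1 higher (7.14%). Of 9 neutrophil genes only Lyz2 was called (11.1%), lower in Ly6D-positive CLP, and the summed level of the list was 524 to 617 there against 702 to 5290 in Ly6D-negative CLP and 1968 to 7180 in young HSC. The count was 6 lower when only the 5 arrays of the 2 populations were fitted. Of 12 macrophage genes, 6 were lower (50%) and 0 higher. The lower count was 4 in the fit of 7 arrays, 3 against old HSC and 1 against wild-type HSC at 32 weeks. Among 13 genes of mature B and plasma cells, 1 was higher (7.69%) and 2 lower (15.4%). Ms4a1, the mature B cell marker CD20, averaged 17.5 in Ly6D-positive CLP and 16.3 in young HSC, and Sdc1, the marker CD138 of plasma cells and also of pre-B cells in mouse marrow, rose by 3.03 ± 0.30 (limma, adjusted p = 1.1e-05). Of 10 T and natural killer cell genes, 2 were higher (20%). These were Klrd1, with means of 213 in Ly6D-positive CLP, against 188 in Ly6D-negative CLP and 8.57 in young HSC, and Nkg7, whose call was lost without Ly6D-positive replicate 1, while Cd3d averaged 21.0 in Ly6D-positive CLP and 16.7 in young HSC. Of 7 mast cell and basophil genes 1 was higher (14.3%) and 1 lower (14.3%), and of 9 stromal and endothelial genes 1 was higher (11.1%) and 3 lower (33.3%). The mature B and mast cell lists lay near the shares of all genes. The part of such cells in the differences above was not tested.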

How the data were processed

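Affymetrix mouse arrays measured RNA of sorted marrow cells. The deposited values are probe set intensities, summarised by the authors to a linear scale; per the labels' protocols, biotinylated cRNA was hybridised, while the method of summary and any normalization are not given in the sources used. Of 45101 probe sets, 34958 carried 1 gene symbol, 932 several and 9211 none, by GEO's platform annotation and RefSeq (GRCm38.p6). Each gene was read from its probe set of highest mean, and was tested if 2 or more of the 16 arrays had it above their 40th percentile. Group means were fitted to log2(intensity + 16) on all 16 arrays with limma 3.58.1 (lmFit, eBayes) in R 4.3.3, with 10 residual degrees of freedom and Benjamini-Hochberg adjustment. The fit was tested on simulated data. The number of arrays limits the precision. Bounds ("at least N-fold") set the mean of the bright group against the lowest level above background.

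Genes were named by a rule: the 20 largest changes in each direction whose arrays do not overlap, the 15 largest in each direction among changes not reached, up to 8 called members of each of 26 lists (or the 2 of smallest p), and 8 markers. Provisional symbols were left out. Members named from outside it (Foxo1, Pax5, Cd79a, Hoxa9, Lmo2, Mki67 and members given only as means) were picked once their values had been seen. The members, lists and tests were chosen with earlier results of these data known. Of 462 list symbols, 418 matched a gene. Alternatives covered scaling, filters, pseudocounts of 1 and 64, probe set choice, array weights, smaller fits, other HSC groups, a replicate block and leaving out each array. List counts under each setting were added after seeing the data.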

Additional observations from a re-analysis of the deposited data

How the results depend on the processing

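The counts of 3345 called, 1464 higher and 1881 lower genes kept within 1.5 times of these values in every fit run, with 2452 to 3592 called, 1035 to 1555 higher and 1417 to 2037 lower when 1 array was left out, but asking for a log2 change of at least 1 left 941 higher genes. The counts that depend on the difference between the CLP groups were less stable. With array weights 102 genes were called between those groups, and 56 higher and 21 lower genes were not reached in Ly6D-negative CLP. With only the 7 arrays of the 3 populations the counts were 192 called and 68 higher. Judged by size alone, as under 0.5 of the distance present in Ly6D-negative CLP, 344 higher and 288 lower genes were not reached. Leaving out 1 array gave 99 to 189 higher and 56 to 150 lower genes not reached, and 301 to 736 called between the CLP groups. The lower count was 56 without young HSC replicate 2, 57 without young HSC replicate 3 and 150 without Ly6D-positive replicate 1, and 736 genes were called between the CLP groups without Ly6D-negative replicate 1. Of the 226 genes not reached, 77 remained with array weights, 110 in the fit of 7 arrays and 118 to 172 when 1 array was left out. Young HSC replicates 2 and 3 correlated at 0.996, and counting them as 1 array gave 2472 called, 106 higher and 58 lower genes not reached. The causes were not tested. Another scaling moved the median of all genes by under 0.1: it was 0.03 after quantile normalization.

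The replicate block rests on numbers that are shared by name only, with correlations of 0.07 and 0.06 between same-numbered deviations. It gave 3236 called, 1457 higher and 1779 lower genes, and 125 higher and 80 lower genes not reached. Of 178 named genes, 133 kept their direction and their side of the threshold under every alternative. Reversals came with other HSC groups as the comparison. Against wild-type HSC at 32 weeks, Cxcr4 differed by -1.09, Cd5l by 0.038, Ccne2 by 0.026, Rps3 by 0.29 and Cd34 by 1.64. Against old HSC, Cxcr4 differed by -1.94, Cxcl12 by 0.0012, Ccne2 by 0.046 and Cd34 by 0.91. Averaging all probe sets of a gene gave smaller sizes for Igll1 (3.27), Ebf1 (3.60) and Mecom (-2.23), all still called. Sizes of genes at background depend on the pseudocount: Rag1 differed by 8.72 with a pseudocount of 1 and by 5.85 with 64. Signal near background limits Pax5, Cd79a, Irf4 and Spib, and sex cannot be told apart from cell type.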

Other observations

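Further genes among the 139 higher changes not reached are given here; they were picked after their values were seen and stand for no pathway as a whole. Both regulatory subunits of the phosphoinositide kinase downstream of G protein-coupled receptors were among them. Pik3r6 averaged 1219 in Ly6D-positive CLP, against 203 in Ly6D-negative CLP and 81.5 in young HSC. Its partner gene Pik3r5 averaged 259 in Ly6D-positive CLP, against 115 in Ly6D-negative CLP and 41.6 in young HSC. Receptors of that class included Gpr18, with a mean of 1027 in Ly6D-positive CLP, against 211 in Ly6D-negative CLP and 20.7 in young HSC. The histamine receptor gene Hrh2 had a mean of 223 in Ly6D-positive CLP, against 67.6 in Ly6D-negative CLP and 37.7 in young HSC. The interleukin 10 receptor chain gene Il10ra averaged 282 in Ly6D-positive CLP, against 65.7 in Ly6D-negative CLP and 14.7 in young HSC. Of the interferon-inducible Ifi200 family, Ifi209 averaged 1699 in Ly6D-positive CLP, against 291 in Ly6D-negative CLP and 28.7 in young HSC. Another member, Ifi213, averaged 349 in Ly6D-positive CLP, against 61.7 in Ly6D-negative CLP and 26.5 in young HSC. Impdh1, an enzyme of guanine nucleotide synthesis, averaged 1083 in Ly6D-positive CLP, against 459 in Ly6D-negative CLP and 193 in young HSC. Pnp, the purine nucleoside phosphorylase, averaged 6201 in Ly6D-positive CLP, against 2978 in Ly6D-negative CLP and 2977 in young HSC. When each of the 7 arrays was left out in turn, Pik3r6, Gpr18, Il10ra and Ifi209 stayed among the changes not reached in all 7 fits and Hrh2 and Ifi213 in 6, whereas Impdh1 stayed in 5, Pnp in 4 and Pik3r5 in 1.

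Among the 87 lower changes not reached, Mycn, a MYC-family factor active in HSC, averaged 107 in Ly6D-positive CLP, against 539 in Ly6D-negative CLP and 3125 in young HSC. Igf1r, the receptor of insulin-like growth factor 1, averaged 148 in Ly6D-positive CLP, against 426 in Ly6D-negative CLP and 1099 in young HSC. Adgrl4, an adhesion receptor of endothelium and HSC, averaged 482 in Ly6D-positive CLP, against 1914 in Ly6D-negative CLP and 3134 in young HSC. The latexin gene Lxn, a regulator of stem cell number in mice, averaged 287 in Ly6D-positive CLP, against 749 in Ly6D-negative CLP and 774 in young HSC. Adgrl4 and Lxn stayed among the changes not reached in all 7 such fits, Mycn in 6 and Igf1r in 4.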
